A study of Rattus norvegicus with 9 samples.

Results

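The genes of the constitutive proteasome, the protease that cells use to break down ubiquitin-tagged proteins, were followed in pancreatic islets of rats on 2 diets. They were the 33 of 14217 measured genes whose annotated symbol is Psma, Psmb, Psmc or Psmd followed by a number, without the immunoproteasome genes Psmb8, Psmb9 and Psmb10. Of these, 13 encode the 20S core (7 Psma and 6 Psmb genes) and 20 are counted with the 19S cap (6 Psmc and 14 Psmd genes). All counts and medians of the cap include Psmd5, Psmd9 and Psmd10, which encode assembly chaperones and not parts of the finished cap. The choice rested on symbols alone, and a gene with several probe sets was read from the brightest one on average. RNA came from 5 islet samples of Wistar rats given an energy-rich cafeteria diet for 30 days and from 4 islet samples of Wistar rats fed standard chow. Each sample was run on 1 Affymetrix rat expression array. The labels set the groups apart by diet and by the words obese diet and lean in the sample titles. The sources used here give no sex, age, hour of death or batch. Nor do they say if a sample pools the islets of more than 1 rat, and a p-value here therefore reflects only how the 9 samples scatter, which may be technical.

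The 20S core is a barrel of stacked rings. The outer rings are made of alpha subunits (Psma genes), which gate the entry, and the inner rings of beta subunits (Psmb genes), some of which carry the active sites. The 19S cap sits on the ends of the barrel. Its base holds a ring of ATPases (Psmc genes) that unfold the substrate, and its lid holds the Psmd14 enzyme that cuts the ubiquitin chain off. Beta cells make and fold large amounts of proinsulin, and the proteasome degrades the misfolded part that the endoplasmic reticulum sends back to the cytosol. In mammals the transcription factor Nfe2l1 (also called NRF1) raises the subunit genes together when proteasome activity falls short.

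Correlations between pairs of arrays ran from 0.979 to 0.994, and no pair held identical values. The islet label was checked against 10 endocrine markers, all of them measured: the insulin gene Ins2 lay at 14.16 to 14.23 in cafeteria islets and 14.13 to 14.24 in chow islets on the log2 scale, the top of the range of these arrays. Values below are deposited log2 expression values, in which a difference of 1 is a 2-fold change. A difference is always cafeteria minus chow, given with its standard error (SE) or 95% interval from limma, which fits all 31042 probe sets together and adjusts p-values over all of them. Of the 10 endocrine markers 3 had a difference above 0 and 7 below, where 50.8% of all genes lay above 0. Their median was -0.051, in a range from -0.27 (Sst) to 0.060 (Iapp), and 0 reached an adjusted p of 0.05 by limma.

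No proteasome gene passed the test between the diets, and most differences were close to 0. Of the 33 genes, 0 reached an adjusted p of 0.05 by limma, as did 0 of all 14217 genes (0%), and the smallest adjusted p among them was 0.844. At an unadjusted p under 0.05 there were 2 of 33, Psma6 and Psmd14, both higher in cafeteria islets, where 6.7% of all genes passed this in either direction, 3.42% higher and 3.28% lower. The samples of the 2 diets overlapped in all 33 genes, and the genes without overlap made up 1.33% of all genes in the higher direction and 0.837% in the lower. The median 95% interval reached 0.18 log2 to either side (1.14-fold), beside 0.22 (1.16-fold) over all genes. In all 33 genes the 95% interval, not adjusted for the number of genes, lay within 1.5-fold in either direction, as it did in 12872 of the 14217 genes. The bound farthest from 0 was 0.58, the upper one of Psmd14. These statements cover only the probe set used for each gene. A further probe set each of Psmc6 and Psmd14, described below, had no overlap between the diets. That of Psmd14 differed by 1.07 (SE 0.24).

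The differences were small and leaned one way. Of the 33 genes 28 had a difference above 0, where 50.8% of all genes did. This was 11 of 13 genes of the 20S core and 17 of 20 of the 19S cap. The median difference was 0.058 for the core (1.04-fold) and 0.028 for the cap (1.02-fold), beside 0.0025 for all genes. The core genes spanned -0.085 to 0.23 and the cap genes -0.11 to 0.29. Single samples moved these medians: without chow replicate 4 the cap median was 0.0099 and the genes above 0 numbered 21, as they did without cafeteria replicate 1, whereas without cafeteria replicate 3 they numbered 31. The core median was 0.027 without cafeteria replicate 5, 0.037 without chow replicate 3 and 0.12 without chow replicate 1. The 33 genes were read in the same 9 samples and are not independent, and 15 of them changed sign under some alternative. Chow replicates 3 and 4 had the lowest means of both parts, as described below.

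**Figure D1:**
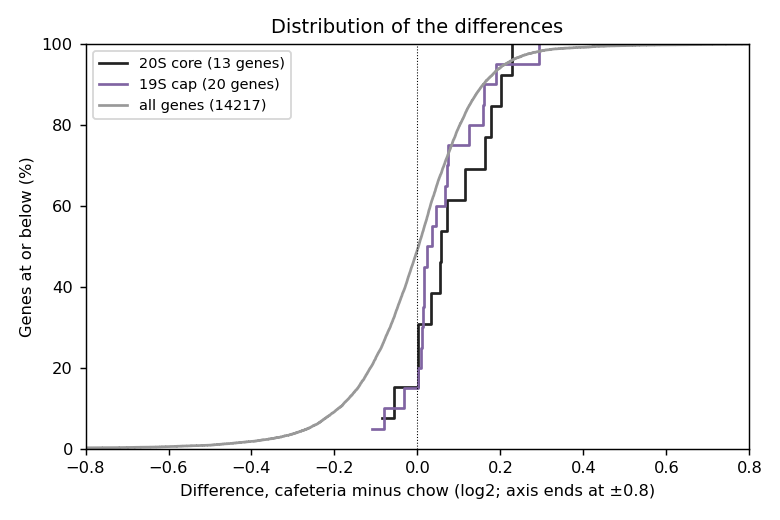
Cumulative share of genes (vertical axis, percent) by the difference between the diets (horizontal axis, log2, cafeteria minus chow) for the 13 core genes, the 20 cap genes and all 14217 genes. Both proteasome curves keep to a narrow range between -0.11 and 0.29, with medians of 0.058 and 0.028.

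**Figure D2:**
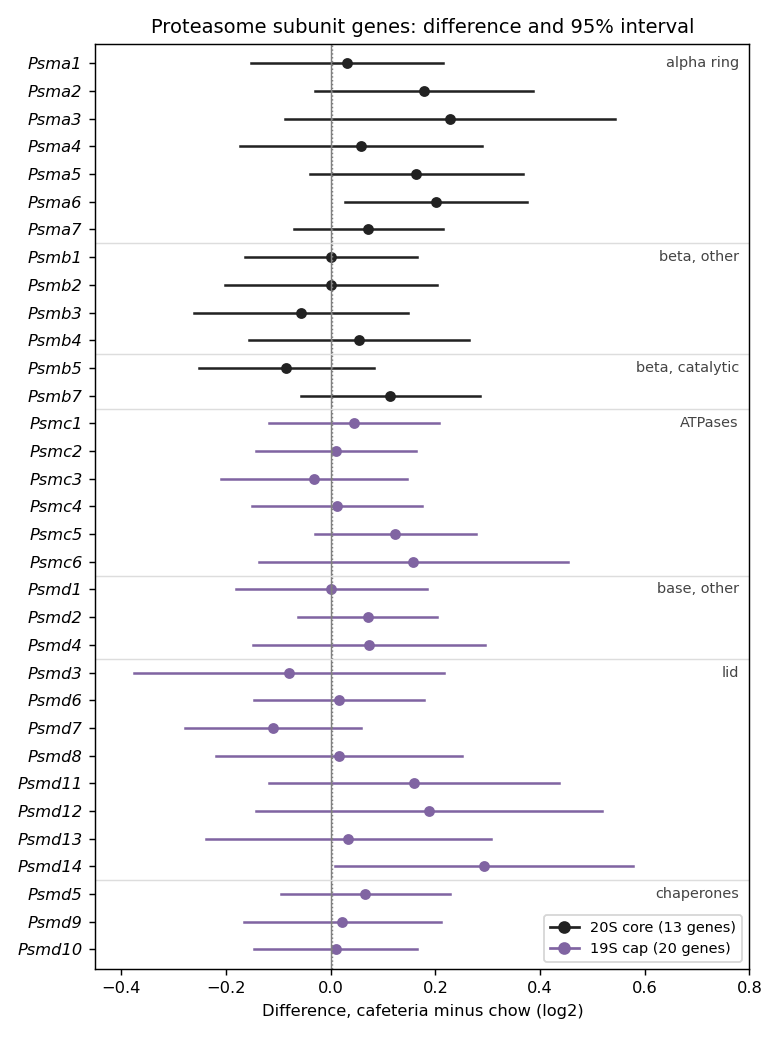
Difference of each gene between the diets (points, log2, cafeteria minus chow) with its unadjusted 95% interval (lines), grouped by place in the proteasome. The solid line marks 0 and the dotted line the median of all genes. The intervals of Psma6 and Psmd14 alone leave out 0.

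All 7 measured Psma genes of the alpha ring had a difference above 0 (50.8% of all genes did), with a median of 0.16, and 0 of 7 passed the test. Of the 7, 5 were lowest in chow replicate 4, and the mean deviation of the ring was 0.0024 to 0.13 in cafeteria islets and -0.21 to 0.056 in chow islets, so that the groups overlapped. The ring assignments, like the other role groups here, come from the known structure of the proteasome. Psma6, an outer-ring subunit, had 10.57, 10.63, 10.73, 10.63 and 10.71 in cafeteria islets, against 10.64, 10.47, 10.37 and 10.33 in chow islets. Chow replicate 1 lay above cafeteria replicates 1, 2 and 4, and the other chow samples lay below every cafeteria sample. The difference was 0.20 (SE 0.079, 95% interval 0.027 to 0.38), 1.15-fold, with an unadjusted limma p of 0.0274 and an adjusted p of 0.844 (5 cafeteria and 4 chow samples).

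Psma3 had the largest difference of the core, 0.23 (SE 0.14, 95% interval -0.088 to 0.54), and also a wide scatter. It measured 7.63, 7.52, 8.23, 7.78 and 8.07 in cafeteria islets, against 7.70, 7.64, 7.71 and 7.43 in chow islets. Cafeteria replicates 3, 5 and 4 stood above all chow samples, and replicates 1 and 2 lay among them. Psma2 measured 9.61, 9.57, 9.76, 9.62 and 9.51 in cafeteria islets, against 9.64, 9.51, 9.38 and 9.22 in chow islets. Chow replicate 4 was lowest and chow replicate 1 lay above 4 of 5 cafeteria samples, and the difference was 0.18 (SE 0.094). Psma5 measured 9.06, 8.96, 8.68, 8.98 and 8.83 in cafeteria islets, against 8.72, 8.90, 8.71 and 8.63 in chow islets. Here cafeteria replicates 1, 2 and 4 lay above the chow samples and replicates 3 and 5 among them, and the difference was 0.16 (SE 0.092). Psma1 and Psma4 had their highest value in chow replicate 1 and differed by 0.032 (SE 0.083) and 0.058 (SE 0.10). Psma7 lay at 9.51 to 9.61 in cafeteria islets and 9.43 to 9.60 in chow islets and differed by 0.072 (SE 0.064). Single samples weighed on several of these: the difference of Psma4 was 0.011 without chow replicate 2, that of Psma2 0.10 without chow replicate 4, and that of Psma3 0.13 without cafeteria replicate 3.

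The 4 beta subunits without an active site showed no lean, with a median difference of 0.00056. Psmb1 averaged 9.87 ± 0.11 in cafeteria islets and 9.86 ± 0.054 in chow islets (SD, n = 5 and 4) and differed by 0.00057 (SE 0.074). Psmb2 averaged 9.97 ± 0.14 in cafeteria islets and 9.97 ± 0.12 in chow islets and differed by 0.00055 (SE 0.092). Both differences changed sign with single samples left out, and no direction is given for either. Psmb3 differed by -0.056 (SE 0.092) and Psmb4 by 0.055 (SE 0.095), which was 0.00049 without chow replicate 3. Psmb1, Psmb2 and Psmb3 had their lowest value of all 9 arrays in cafeteria replicate 3, the sample that was highest for Psma2, Psma3, Psma6 and Psma7.

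Active sites of the constitutive core are carried by Psmb5, Psmb6 and Psmb7, which cut after hydrophobic, acidic and basic residues in this order. Psmb6 had no probe set assigned to it alone and is not analysed here, nor are Psmb11 of the thymus and Psma8 of the testis, which the platform annotation used here does not list. Psmb5 measured 10.42, 10.26, 10.17, 10.26 and 10.35 in cafeteria islets, against 10.29, 10.49, 10.40 and 10.33 in chow islets. The groups overlapped, with cafeteria replicate 3 lowest and chow replicate 2 highest, and the difference was -0.085 (SE 0.076, 95% interval -0.25 to 0.083). Its other 2 probe sets, both dim, had the opposite sign (0.056 and 0.11), so no direction is given for it. Psmb7 measured 9.15, 9.03, 8.96, 8.94 and 8.89 in cafeteria islets, against 8.88, 8.997, 8.78 and 8.86 in chow islets. Its groups overlapped as well, with cafeteria replicate 1 highest and chow replicate 3 lowest, and the difference was 0.11 (SE 0.077, 95% interval -0.056 to 0.28). It was 0.075 without cafeteria replicate 1, and that of Psmb5 was -0.046 without chow replicate 2.

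In immune cells and after interferon-gamma, Psmb8, Psmb9 and Psmb10 take the places of Psmb5, Psmb6 and Psmb7 in the core, giving the immunoproteasome, which favours peptides for class I histocompatibility molecules. Of these 3 replacement genes, Psmb8 and Psmb9 leaned the other way from most constitutive genes, and no direction is given for Psmb10. A difference below 0 was found in 3 of 3, Psmb10 only barely, where 50.8% of all genes lay above 0. The median was -0.36, and 0 of 3 passed the test. Psmb8 measured 5.92, 6.18, 5.67, 6.07 and 6.03 in cafeteria islets, against 6.21, 6.24, 6.52 and 6.37 in chow islets. Its groups did not overlap, which held in this direction for 0.837% of all genes. The lowest chow sample lay just above the highest cafeteria sample. The difference was -0.36 (SE 0.11) at an unadjusted limma p of 0.00793 (adjusted 0.844). Psmb9 measured 6.95, 6.58, 5.62, 6.53 and 6.60 in cafeteria islets, against 6.87, 6.82, 7.58 and 6.84 in chow islets. Chow replicate 3 was highest by a wide gap and cafeteria replicate 3 lowest by a wide gap, and the difference was -0.57 (SE 0.25) with both, -0.38 without chow replicate 3 and -0.36 without cafeteria replicate 3. Psmb10 measured 6.47, 6.77, 5.96, 6.68 and 6.58 in cafeteria islets, against 6.53, 6.37, 6.58 and 6.55 in chow islets, with cafeteria replicate 3 again lowest and the other samples mixed. It differed by -0.016 (SE 0.15), and its sign changed between settings. Whether these differences are distinct from those of Psmb5 and Psmb7 was not tested.

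Markers of immune cells leaned the same way as Psmb8 and Psmb9, but they were not alone in this. Also below 0 were 8 of 9 measured endothelial markers (median -0.16), 6 of 9 ductal markers (median -0.22) and 7 of 10 endocrine markers. Of the acinar markers 12 of 13 lay above 0. Of 18 immune markers 17 were measured, and 16 of the 17 had a difference below 0, with a median of -0.72. Their mean deviation from the 9-array mean ranged over -0.36 to -0.082 in cafeteria islets and -0.085 to 1.21 in chow islets, and chow replicate 3 held the highest value of 13 of the 17. Cafeteria replicate 3, lowest for Psmb8, Psmb9 and Psmb10, had an immune mean of -0.36, beside -0.34 and -0.33 in cafeteria replicates 1 and 2. The pan-leukocyte gene Ptprc measured 4.20, 4.13, 4.60, 4.36 and 4.61 in cafeteria islets, against 4.99, 4.99, 7.33 and 4.43 in chow islets, so that chow replicate 3 stood far above every other sample. In 3 of the 17, Coro1a, Cd74 and Cd79b, every cafeteria sample lay below every chow sample, as in 0.837% of all genes. At an unadjusted limma p under 0.05 there were 6 of 17, all lower (3.28% of all genes), and 0 reached an adjusted p of 0.05. In bulk islets fewer cells of a type and less RNA per cell cannot be told apart. The part of immune cells in the values of Psmb8 and Psmb9 was not tested. Without chow replicate 3 the difference of Psmb8 was -0.30. Leaving out that sample does not take out the lean of the immune markers. Coro1a measured 5.72, 5.68 and 5.31 in chow replicates 1, 2 and 4, against at most 4.97 in cafeteria islets.

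**Figure D3:**
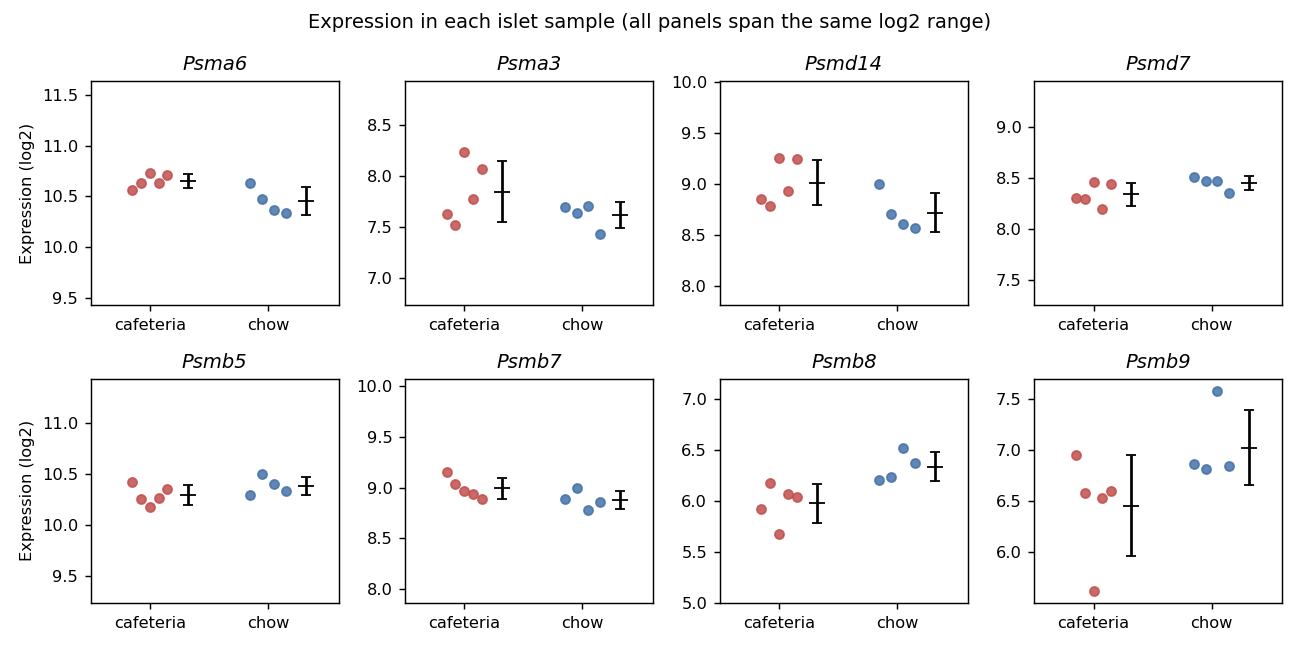
Expression (vertical axis, log2) of 8 genes in each cafeteria sample and each chow sample (points), with the mean and SD beside each group; every panel spans the same log2 range. The groups overlap in Psma6, Psma3, Psmd14, Psmd7, Psmb5, Psmb7 and Psmb9, and in Psmb8 the cafeteria samples end at 6.18 and the chow samples begin at 6.21.

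The promoters of the constitutive Psmb5 and Psmb7 and of the immunoproteasome genes Psmb8 and Psmb9 are shown because Psmb8 and Psmb9 belong to the exchanged set and Psmb5 and Psmb7 to the set they replace. Each is the 300-base stretch from 250 bases before to 50 after the gene's start, 5′ to 3′ along the gene, from RefSeq, build GRCr8. The positions are chr15:32047330-32047629 (minus strand) for Psmb5, chr3:42827421-42827720 (minus strand) for Psmb7, chr20:4656982-4657281 (minus strand) for Psmb8 and chr20:4668750-4669049 (plus strand) for Psmb9. Capitals mark matches, on either strand, to the motifs TGACNNNGC (the antioxidant response core that Nfe2l1 and its relatives bind), CCAAT (bound by NF-Y), GAAA followed by any 2 bases and GAAA (the interferon response element) and TTCNNNGAA (the site of STAT factors).
Psmb5: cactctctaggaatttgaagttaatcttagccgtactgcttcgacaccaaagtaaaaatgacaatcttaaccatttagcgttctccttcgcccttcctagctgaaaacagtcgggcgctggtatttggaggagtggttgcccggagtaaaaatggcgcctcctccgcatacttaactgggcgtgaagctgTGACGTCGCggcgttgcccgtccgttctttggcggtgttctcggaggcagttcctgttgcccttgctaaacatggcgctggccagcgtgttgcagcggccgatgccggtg
Psmb7: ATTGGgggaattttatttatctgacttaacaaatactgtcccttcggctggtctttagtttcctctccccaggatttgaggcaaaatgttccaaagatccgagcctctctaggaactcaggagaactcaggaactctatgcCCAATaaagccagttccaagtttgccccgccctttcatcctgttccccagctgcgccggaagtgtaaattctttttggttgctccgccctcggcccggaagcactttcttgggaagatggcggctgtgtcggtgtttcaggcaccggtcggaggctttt
Psmb8: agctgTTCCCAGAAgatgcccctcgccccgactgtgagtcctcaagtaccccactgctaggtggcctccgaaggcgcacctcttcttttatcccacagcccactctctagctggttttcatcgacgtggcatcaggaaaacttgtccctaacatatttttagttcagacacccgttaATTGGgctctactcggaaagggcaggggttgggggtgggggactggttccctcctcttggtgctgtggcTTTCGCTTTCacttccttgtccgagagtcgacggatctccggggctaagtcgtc
Psmb9: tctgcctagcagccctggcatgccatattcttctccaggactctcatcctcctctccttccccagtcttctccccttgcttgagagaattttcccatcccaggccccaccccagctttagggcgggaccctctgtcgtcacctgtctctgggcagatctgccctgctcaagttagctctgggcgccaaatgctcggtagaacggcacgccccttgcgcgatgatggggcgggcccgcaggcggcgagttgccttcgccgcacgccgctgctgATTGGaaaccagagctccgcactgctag

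In this window Psmb5 held 1 match to TGACNNNGC, and Psmb7 held 2 matches to CCAAT. Psmb8 held 1 match each to CCAAT, the interferon element and TTCNNNGAA, and Psmb9 held 1 match to CCAAT. No 2 matches overlapped in these 4 promoters. Promoters were found in RefSeq for 29 of the 33 genes. TGACNNNGC stood in 6 of the 29 (20.7%), among them Psma3, Psmb2, Psmd1, Psmd3 and Psmd9, against 12.1% of all 33469 promoters of this length. CCAAT stood in 16 of 29 (55.2%), against 37.5%. The interferon element stood in 3 of 29 (10.3%, against 3.92%) and TTCNNNGAA in 3 of 29 (10.3%, against 8.87%). The promoter of Psmb2 alone among the 29 held overlapping matches to these motifs. A match describes the letters and is not a measured binding site.

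The ATPases of the 19S base, Psmc1 to Psmc6, differed by -0.032 to 0.16, with 5 of 6 above 0, a median of 0.029 and 0 of 6 past the test. Psmc5 measured 9.34, 9.37, 9.46, 9.36 and 9.46 in cafeteria islets, against 9.40, 9.25, 9.17 and 9.28 in chow islets. Chow replicate 1 lay among the cafeteria samples and the other chow samples below them all, and the difference was 0.12 (SE 0.069, 95% interval -0.030 to 0.28). Psmc6 lay at 7.90 to 8.47 in cafeteria islets and 7.74 to 8.26 in chow islets and differed by 0.16 (SE 0.13), with cafeteria replicate 3 highest and chow replicate 4 lowest, and by 0.075 without chow replicate 4. Its other 2 probe sets differed by 0.22 and 0.27. The last of these measured 5.76, 5.54, 5.91, 5.75 and 5.80 in cafeteria islets, against 5.47, 5.53, 5.51 and 5.38 in chow islets, without overlap between the groups, but at an adjusted limma p of 0.844. It was singled out after its values were seen.

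Psmc1 differed by 0.045 (SE 0.073), Psmc2 by 0.010 (SE 0.069), Psmc3 by -0.032 (SE 0.080) and Psmc4 by 0.013 (SE 0.073). Psmc2 averaged 10.78 ± 0.059 in cafeteria islets and 10.77 ± 0.091 in chow islets (SD, n = 5 and 4). Chow replicate 1 was highest for Psmc2 and Psmc4, and chow replicate 3 was lowest for Psmc1 and Psmc2. The difference of Psmc1 was 0.0023 without cafeteria replicate 5. The signs of Psmc2, Psmc3 and Psmc4 changed with single samples left out.

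The other genes of the base encode the large scaffold subunits Psmd1 and Psmd2 and the ubiquitin receptor Psmd4. They differed by 0.0012 (SE 0.082), 0.071 (SE 0.060) and 0.073 (SE 0.10). Psmd2 had the smallest within-group spread of the 33 genes, with 9.86, 9.94, 9.83, 9.85 and 9.91 in cafeteria islets, against 9.78, 9.78, 9.82 and 9.85 in chow islets. Cafeteria replicate 2 was highest, and the remaining 8 samples lay within 9.78 to 9.91. Psmd4 was lowest in cafeteria replicate 3 within its group and in chow replicate 3 within the other, and its difference was 0.0043 without chow replicate 3.

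The lid held both the highest and the lowest difference of the 33 genes. Of its 8 genes 6 had a difference above 0, the median was 0.025, and 0 passed the test. Psmd14, the deubiquitinase that frees the substrate from its chain, measured 8.85, 8.78, 9.25, 8.93 and 9.24 in cafeteria islets, against 8.99, 8.70, 8.60 and 8.56 in chow islets. Cafeteria replicates 3 and 5 were highest, and chow replicate 1 lay above the other 3 cafeteria samples, so the groups overlapped. The difference was 0.29 (SE 0.13, 95% interval 0.0086 to 0.58), 1.22-fold, at an unadjusted limma p of 0.0446 and an adjusted p of 0.844. It was 0.39 without chow replicate 1 and 0.23 without cafeteria replicate 3.

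Psmd14 had 2 further probe sets, both with a difference above 0. One of them differed by 0.19 (SE 0.11). The other, dimmer one, singled out after its values were seen, measured 5.56, 5.92, 6.43, 6.11 and 5.70 in cafeteria islets, against 5.47, 4.38, 4.54 and 5.10 in chow islets. Every cafeteria sample lay above every chow sample there, chow replicate 1 only just. It differed by 1.07 (SE 0.24), far more than the other probe sets of the gene, at an unadjusted limma p of 0.000937 and an adjusted p of 0.844. The probe sets of Psmd14 share a sign but not a size.

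Psmd7, which pairs with Psmd14 in the lid, had the lowest difference of the 33 genes and the opposite sign to its partner, -0.11 (SE 0.076, 95% interval -0.28 to 0.058). It measured 8.30, 8.30, 8.46, 8.19 and 8.44 in cafeteria islets, against 8.51, 8.47, 8.47 and 8.35 in chow islets, with chow replicates 1 to 3 above every cafeteria sample and chow replicate 4 among the cafeteria samples. Psmd11 measured 10.10, 10.21, 10.58, 10.17 and 10.40 in cafeteria islets, against 10.44, 10.03, 9.94 and 10.10 in chow islets. Cafeteria replicate 3 was highest and chow replicate 1 second, and the difference was 0.16 (SE 0.13). Its other probe sets gave 0.14 and 0.11. Psmd12 measured 7.86, 7.89, 8.39, 7.86 and 8.31 in cafeteria islets, against 8.20, 7.85, 7.80 and 7.65 in chow islets. The same samples led it, cafeteria replicates 3 and 5 and chow replicate 1, and the difference was 0.19 (SE 0.15). Psmd11 and Psmd12 are scaffold subunits of the lid, and without cafeteria replicate 3 they differed by 0.088 and 0.11.

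The remaining lid genes encode structural subunits. Psmd3 ranged over 7.53 to 8.15 in cafeteria islets and 7.79 to 8.15 in chow islets, with cafeteria replicate 3 lowest, and differed by -0.080 (SE 0.13). Psmd6 differed by 0.016 (SE 0.074), Psmd8 by 0.017 (SE 0.11) and Psmd13 by 0.034 (SE 0.12). The signs of all 4 changed with single samples left out. Psmd5, Psmd9 and Psmd10 are not parts of the finished cap but chaperones that assemble its base. They differed by 0.066 (SE 0.073), 0.022 (SE 0.085) and 0.0092 (SE 0.070), and 0 of 3 passed the test. Psmd5 differed by 0.034 without cafeteria replicate 1.

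Probe sets that were not used for a gene gave a further reading of the same samples in 7 of the 33 genes. Of these 11 probe sets 10 had a difference above 0 (50.8% of all genes did), and 9 had the sign of the probe set used. Both exceptions belonged to Psmb5. Those of Psmb5, Psmc4 and Psmd9 and the dimmest of Psmc6, Psmd11 and Psmd14 had mean levels of 4.14 to 5.63. The medians of the arrays were 5.28 to 5.32, and no detection call is at hand.

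In each sample the means of the core and the cap lay close to each other, and 2 chow samples lay below the other 7. The mean deviation of the 13 core genes from their 9-array means was 0.071, 0.0072, -0.0019, 0.0086 and 0.079 in cafeteria replicates 1 to 5, against 0.023, 0.022, -0.073 and -0.14 in chow replicates 1 to 4. For the 20 cap genes it was 0.042, -0.0014, 0.011, -0.011 and 0.078 in cafeteria replicates 1 to 5, against 0.052, 0.017, -0.089 and -0.10 in chow replicates 1 to 4. Chow replicates 3 and 4 were lowest in both, whereas chow replicates 1 and 2 lay among the cafeteria samples. Of the 33 genes, 10 had their lowest value in chow replicate 4 and 9 in chow replicate 3, and 0 had their highest value in either. The core minus the cap was -0.013 to 0.029 in cafeteria islets and -0.036 to 0.015 in chow islets, a narrower range than that of either mean. The markers of acinar cells, which make digestive enzymes, were also low in chow replicates 3 and 4 (-0.61 and -0.79), in a range of -1.12 to 0.74 in cafeteria islets and -0.79 to 0.20 in chow islets over 13 measured markers of 14, of which 12 had a difference above 0. Cafeteria replicate 5 had the lowest acinar value of all samples, -1.12, and the highest mean of core and cap. The part of acinar RNA in the proteasome values was not tested.

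**Figure D4:**
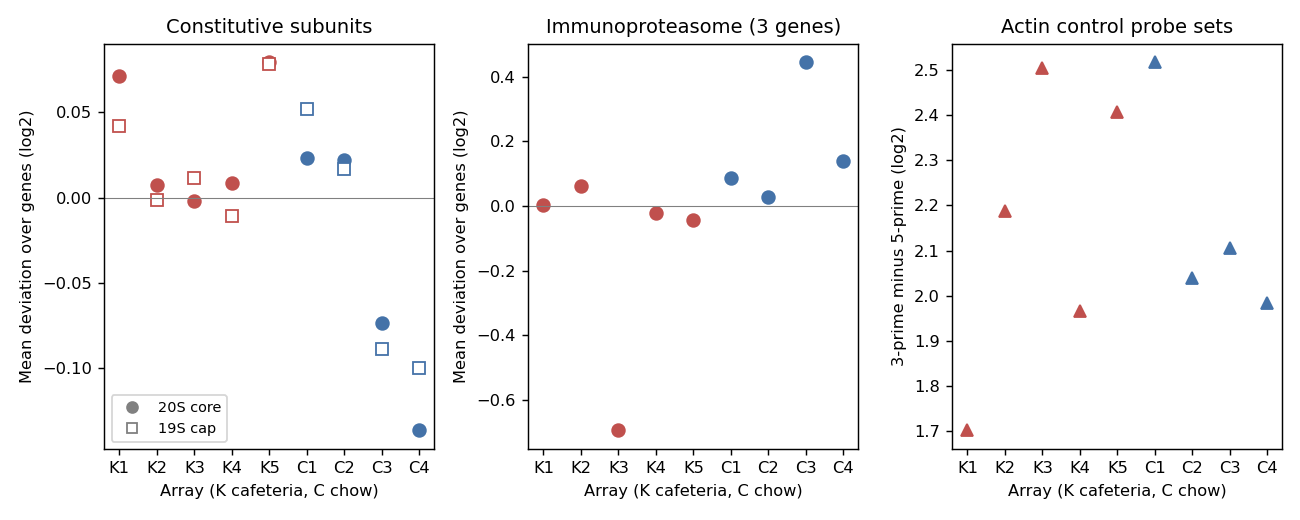
Mean log2 deviation from the 9-array mean for the core and cap genes (left) and for Psmb8, Psmb9 and Psmb10 (middle), and the 3-prime minus 5-prime difference of the actin control probe sets (right), in each array (K1 to K5 cafeteria, C1 to C4 chow). Chow replicates 3 and 4 lie lowest on the left, and cafeteria replicate 3 lies lowest in the middle.

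A second pattern split the genes of both parts. Cafeteria replicate 3 held the highest value of 9 of the 33 genes and the lowest of 8, which is 17 of 33 (51.5%, against 38.6% of all genes). The genes highest there were Psma2, Psma3, Psma6, Psma7, Psmc5, Psmc6, Psmd11, Psmd12 and Psmd14, and those lowest there were Psmb1, Psmb2, Psmb3, Psmb5, Psmc3, Psmc4, Psmd3 and Psmd9. Cafeteria replicate 5 and chow replicate 1 did not go with cafeteria replicate 3 in all of these genes. Psma2 was lowest of its group in cafeteria replicate 5 (9.51). Psmc3 and Psmc4 were among their highest values in chow replicate 1 (8.51 and 9.29). In Psmd11, Psmd12 and Psmd14 cafeteria replicate 5 and chow replicate 1 were high too. These 3 samples had the largest 3-prime minus 5-prime difference of the actin control probe sets, a measure of RNA integrity, which was 1.70, 2.19, 2.50, 1.97 and 2.41 in cafeteria replicates 1 to 5, against 2.52, 2.04, 2.11 and 1.98 in chow replicates 1 to 4. Without these 3 samples, an alternative chosen after seeing the data, the median was 0.080 for the core and 0.071 for the cap, 28 of 33 genes lay above 0 though not the same 28 (Psmc3 and Psmd3 in, Psmd1 and Psmd10 out), and Psma3 differed by 0.050 and Psmd14 by 0.23.

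**Figure D5:**
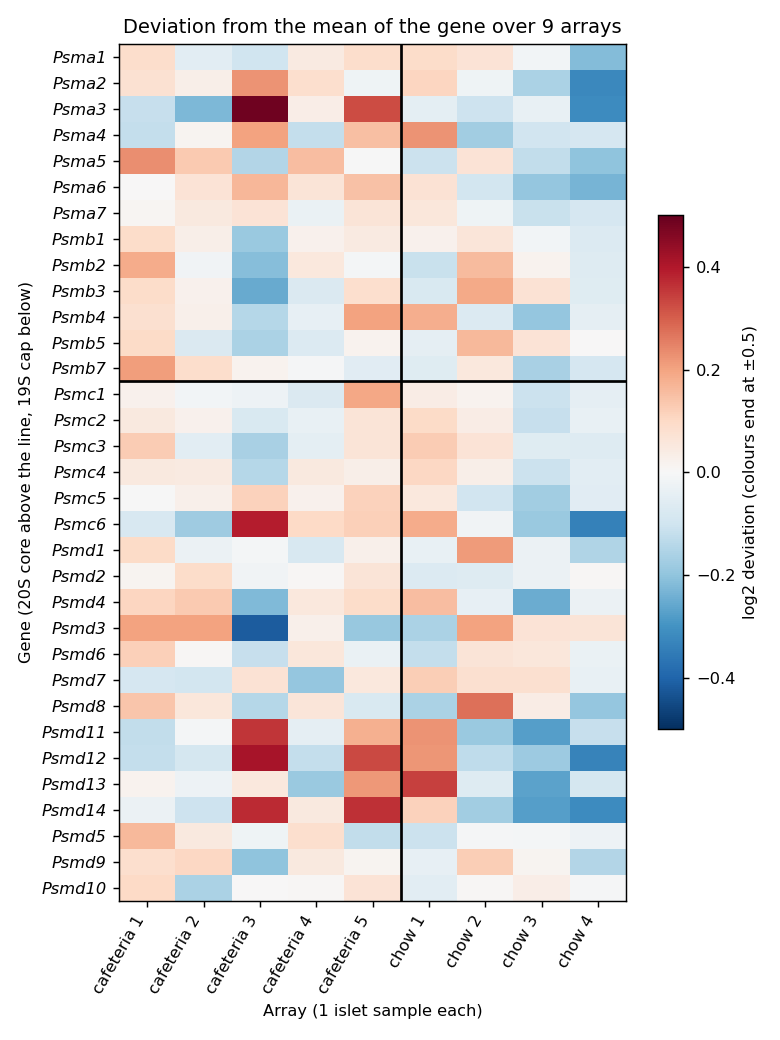
Deviation of each of the 33 genes (rows, core above the line) from its own 9-array mean in each sample (columns, cafeteria left of the line, chow right), in log2, with colours ending at 0.5 to either side. The column of cafeteria replicate 3 holds both the strongest positive and the strongest negative values, and the columns of chow replicates 3 and 4 are mostly below 0.

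The genes around the proteasome gave 37 measured members of 45 listed, of which 0 passed the test and 22 had a difference above 0. At an unadjusted p under 0.05 by limma there were 5, 1 higher and 4 lower, beside 3.42% and 3.28% of all genes. All 5 chaperones that assemble the core had a difference above 0, with a median of 0.11. Psmg2, which helps to build the alpha ring, measured 7.83, 7.93, 8.02, 7.97 and 7.99 in cafeteria islets, against 7.87, 7.71, 7.55 and 7.75 in chow islets. Its lowest cafeteria sample lay just below chow replicate 1, and the difference was 0.23 (SE 0.080), at an unadjusted limma p of 0.016 and an adjusted p of 0.844. Pomp, which directs the assembly of the beta rings, differed by 0.11 (SE 0.079), and by 0.054 without chow replicate 4. Psmg1, Psmg3 and Psmg4, further chaperones of the core, differed by 0.13 (SE 0.079), 0.010 (SE 0.11) and 0.053 (SE 0.11).

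Of the alternative activators, Psme1 and Psme2 form the PA28 ring that interferon-gamma induces. Psme1 measured 9.64, 9.43, 9.10, 9.38 and 9.39 in cafeteria islets, against 9.59, 9.75, 9.82 and 9.44 in chow islets. Cafeteria replicate 3 was lowest, and cafeteria replicate 1 lay above chow replicates 1 and 4. The difference was -0.26 (SE 0.11), at an unadjusted limma p of 0.0463 and an adjusted p of 0.844, and a second, dim probe set gave -0.046. Its partner Psme2 differed by 0.077 (SE 0.071). Psme4, another activator, differed by 0.052 (SE 0.078), and the inhibitor gene Psmf1 by 0.096 (SE 0.081).

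Of the 8 genes that control subunit transcription, 4 had a difference above 0, with a median of 0.0049. Nfe2l1 itself measured 8.75, 8.27, 7.30, 8.01 and 8.50 in cafeteria islets, against 7.95, 8.11, 8.22 and 8.90 in chow islets. Cafeteria replicate 3 stood far below every other sample and the rest of both groups overlapped, and the difference was -0.13 (SE 0.28), with a sign that changed when single samples were left out. Ubiquitin-related genes had 7 measured members of 12, with 3 above 0. Among them Ube2r2, a ubiquitin-conjugating enzyme, had 9.26, 9.07, 8.54, 8.79 and 9.54 in cafeteria islets, against 9.47, 9.34, 9.39 and 9.62 in chow islets. Cafeteria replicates 3 and 4 were lowest, cafeteria replicate 5 lay among the chow samples, and the difference was -0.42 (SE 0.18), at an unadjusted limma p of 0.0386 and an adjusted p of 0.844.

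Proteins that bind the proteasome had 10 measured genes of 12 listed, with 7 above 0 and a median of 0.049. Sem1, a small lid subunit outside the naming scheme, differed by -0.12 (SE 0.093). The deubiquitinases Uchl5 and Usp14 differed by 0.15 (SE 0.090) and 0.058 (SE 0.11).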

How the data were processed

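Islets were isolated with collagenase, their RNA was extracted with Trizol, and biotin-labelled cRNA of 9 samples was hybridised to 1 array each, per the labels' protocols. The authors deposited log2 values, 1 per probe set and array. RMA, R 2.7.0 and affy 2.0.1 appear in the submitters' processing notes with no role given. RMA usually equalises the distributions of arrays, which would remove a shift shared by most genes, and gives no detection call. The number of arrays limits the precision. Of 31099 probe sets 57 controls were left out. The platform annotation gave 20826 probe sets 1 gene each (14217 genes); 436 with several genes and 9780 not listed were tested but not named.

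The 31042 probe sets were fitted with limma 3.58.1 (R 4.3.3; lmFit and eBayes, two-sided, no covariate), with Benjamini-Hochberg adjustment and a threshold of 0.05. Summaries used Python 3.11.15 with pandas 2.3.3 and scipy 1.17.1. The fit was tested on simulated data with independent noise, which leaves out shifts that genes share within an array. It recovered 47 of 67 changes of 1.5-fold, 58 of 67 of 2-fold and 62 of 66 of 3-fold. Of its 175 calls 8 were false.

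Members, lists and tests were chosen with earlier results of these data known. Every member is named; values per sample are given for Psmb5, Psmb7, the 5 core and 5 cap genes of smallest p, and those of largest and smallest difference. From the pathway lists, Psmb8, Psmb9, Psmb10, Psme1, Psme2, Pomp, Nfe2l1 and the 3 genes of smallest p were named by rule. The other named genes of these lists, and Psmd2 for its sample values, were picked with their values in view. Alternatives were other scalings, a filter on dim probe sets, other variance models and weights, other probe set rules, a threshold of 0.10 and leaving out each sample. The 2 added ones concern RNA integrity.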

Additional observations from a re-analysis of the deposited data

Results flagged for a closer look

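Of 88 groups tested for a sample far from the others of its diet (42 genes and the means of the core and the cap, in each diet), 4 held such a sample (4.55%), and chance gives about 1 in 20. Psmb1 was 9.68 in cafeteria replicate 3, against 9.89 in the next cafeteria sample. Psmc4 was 9.05 in the same sample, against 9.22 in the next. Psmd4 was 8.41 there, against 8.68 in the next. Cafeteria replicate 3 had the second largest actin 3-prime minus 5-prime difference of the 9 arrays. Chow replicate 1, which had the largest, measured 9.89 for Psmb1, 9.29 for Psmc4 and 8.78 for Psmd4. Its values of Psmc4 and Psmd4 were the highest of all samples. The part of RNA integrity in the low values was not tested. Psmb9 was 7.58 in chow replicate 3, against 6.87 in the next chow sample; the same chow sample had the highest immune marker value of all arrays.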

How the results depend on the processing

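The count of proteasome genes past the threshold was 0 of 33 under all 19 alternatives, the threshold of 0.10 included. The smallest adjusted limma p of a member was 0.344, with the mean of the actin and Gapdh 3-prime minus 5-prime differences as a covariate. At an unadjusted p under 0.05 there were 0 to 5 of 33 genes. With single samples left out the core median ranged from 0.027 to 0.12 and the cap median from 0.0099 to 0.065. With the covariate they were 0.083 and 0.030, with 5 of 33 genes at an unadjusted p under 0.05 where 13.5% of all genes passed. No alternative turned the sign of either median, and 18 of 33 genes kept theirs under all 19 alternatives. With the same covariate the sign turned for Psmb1 (-0.0083), Psmb2 (-0.024), Psmd1 (-0.00036), Psmd6 (-0.0027) and Psmd8 (-0.0052). With array weights the sign turned for Psmd1 (-0.016), Psmd10 (-0.0059) and Psmb10 (0.069). With the mean of all probe sets of a gene the sign turned for Psmb5 (0.028). With the probe set of highest variance the sign turned for Psmb5 (0.11). After repeated quantile normalization the sign turned for Psmc2 (-9.0e-06) and Psmb10 (0.0056). Without the 3 arrays of largest actin difference the sign turned for Psmc3 (0.027), Psmd1 (-0.016), Psmd3 (0.031), Psmd10 (-0.028) and Psmb10 (0.14). Leaving out single samples turned the sign of Psmb1 (-0.023 to 0.047), Psmb2 (-0.046 to 0.054), Psmc2 (-0.027 to 0.044), Psmd1 (-0.048 to 0.072), Psmd6 (-0.022 to 0.046), Psmd8 (-0.045 to 0.11), Psmd10 (-0.015 to 0.049), Psmd9 (-0.022 to 0.075), Psmb3 (-0.092 to 0.00026), Psmc3 (-0.068 to 0.0048), Psmd3 (-0.15 to 0.015), Psmb10 (-0.085 to 0.12), Nfe2l1 (-0.28 to 0.086), Psmd13 (-0.048 to 0.15), Psmc4 (-0.021 to 0.050) and Psma1 (-0.035 to 0.068). None of the reversed genes passed the test in any setting, and the cause was not tested. The probe set of highest variance replaced that of Psmd14 and gave 1.07, and the mean of its probe sets gave 0.52. No paired analysis was possible because the replicate numbers were given in accession order and pair no samples. RMA values carry no detection call, so whether dim probe sets, such as the further ones of Psmb5, were above background could not be read.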

Other observations

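Some genes around the proteasome scattered widely between samples of the same diet; they were picked with their values in view. Adrm1, a ubiquitin receptor of the 19S base, measured 8.20, 7.99, 7.05, 7.76 and 7.39 in cafeteria islets, against 7.36, 8.47, 8.27 and 8.10 in chow islets, and differed by -0.37 (SE 0.26). Akirin2, which brings proteasomes into the nucleus, measured 6.70, 6.23, 5.48, 6.55 and 5.77 in cafeteria islets, against 5.97, 6.36, 6.35 and 5.97 in chow islets, and differed by -0.021 (SE 0.23). Ddi2, the protease that activates Nfe2l1, measured 8.19, 7.88, 7.08, 8.03 and 7.73 in cafeteria islets, against 7.32, 7.82, 7.86 and 8.09 in chow islets, and differed by 0.011 (SE 0.22). In all 3 genes cafeteria replicate 3 was lowest. Within the chow group replicate 1 was lowest for Adrm1 and Ddi2.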
